A study of Mus musculus with 8 samples.

Results

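The surfactant and alveolar type II genes are 9 genes by which the type II epithelial cell of the lung is known: *Sftpc*, *Sftpb*, *Sftpd*, *Sftpa1*, *Abca3*, *Lamp3*, *Slc34a2*, *Napsa* and *Lpcat1*. Each was read from the array probe sets (the groups of short probes that report 1 transcript) that carry its symbol and no other, taking the probe set with the highest mean over all arrays. By this rule 8 of the 9 genes have a value, out of 18193 genes in all. The only probe set of *Lamp3*, a lysosomal membrane protein of lamellar bodies, is annotated to a second gene as well (*Ppid*), so *Lamp3* has no value here. The lungs came from adult female C57BL/6 mice aged 10 to 12 weeks. In the PNY group the left lung was tied off at the hilum and removed (left unilateral pneumonectomy), and in the SHAM group the chest was opened and, after a short wait, closed with both lungs in place. Lungs were taken at 4 time points after surgery (6 hours and days 1, 3 and 7), perfused through the vessels, and equal amounts of tissue of 8 mice were pooled for each of the 8 arrays, so that each surgery has 1 array at each time point. An array therefore gives the mean of a pool and no spread between mice, and no animal without surgery is in the set.

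Type II cells make pulmonary surfactant, the film of phospholipid and protein that lowers surface tension in the alveoli, store it in lamellar bodies and secrete it by exocytosis. They also serve as progenitors of the flat type I cells that cover most of the gas exchange surface. The surfactant proteins B and C are small hydrophobic peptides that help the lipid film to spread, whereas A and D are collectins, lectins that bind microbes and take part in surfactant turnover. Transcription of the surfactant protein genes is known to depend on NKX2-1, a homeodomain factor of lung epithelium.

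The motif that NKX2-1 is known for, CTCAAG, was searched on both strands (as CTCAAG and CTTGAG) in the 250 bases before the start that RefSeq's promoter table (build GRCm38.p6) gives each gene. For *Abca3* that start lies inside the span given for the gene below, so part of its window is within the gene. It was found in 13.3% of 32851 such windows of the mouse genome and in 2 of the 6 genes, of the 9, that have one. The 2 windows are shown because they are the ones with a match, with the motif in capitals, read 5′ to 3′ on the + strand and ending at the base before the gene. That of *Sftpb* spans chr6:72304360-72304609, with matches that begin at -100 and -15 from the start, and that of *Sftpa1* spans chr14:41131538-41131787, with 1 match at -166. A match is a description of the letters and was not tested as a binding site.
Sftpb: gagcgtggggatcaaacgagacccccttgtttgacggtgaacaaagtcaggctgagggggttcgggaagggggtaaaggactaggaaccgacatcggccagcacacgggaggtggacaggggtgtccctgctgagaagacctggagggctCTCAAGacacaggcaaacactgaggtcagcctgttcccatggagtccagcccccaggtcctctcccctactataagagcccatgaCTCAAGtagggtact
Sftpa1: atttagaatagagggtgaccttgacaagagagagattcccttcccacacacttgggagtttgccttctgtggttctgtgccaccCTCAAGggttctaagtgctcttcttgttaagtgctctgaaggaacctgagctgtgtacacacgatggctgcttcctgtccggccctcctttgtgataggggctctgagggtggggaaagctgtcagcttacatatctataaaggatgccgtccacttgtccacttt

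On the probe set used for each, none of the 8 genes differed between PNY and SHAM lungs by a fold change of 1.5 at any time point. Of all probe sets, 2.25% did at 6 hours, 3.78% on day 1, 1.93% on day 3 and 3.64% on day 7, so 0 of 8 is near these shares. None of the 8 genes passed the tests across all probe sets. The largest difference at 1 time point, log2 expression in PNY minus that in SHAM, was 0.22 in size, a fold change of 1.17, for *Slc34a2* at 1 day. On the probe sets used, all 8 genes stayed under a fold change of 1.2 at all 4 time points. The same held for 38.4% of all 45037 probe sets and, among the 915 probe sets at or above the lowest mean level of the 8 genes (11.44), for 75.3%. Some other probe sets of these genes passed a fold change of 1.2 at 3 days. A second bright *Lpcat1* one reached 1.23, lower in PNY, and a dimmer *Sftpc* one 2.09, higher in PNY. With a single array per surgery and time point these differences carry no test. Values are log2 RMA expression relative to the total RNA of an array, so fewer type II cells and less RNA per cell cannot be told apart in them, and the amount of surfactant RNA in the whole lung was not measured.

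**Figure D1:**
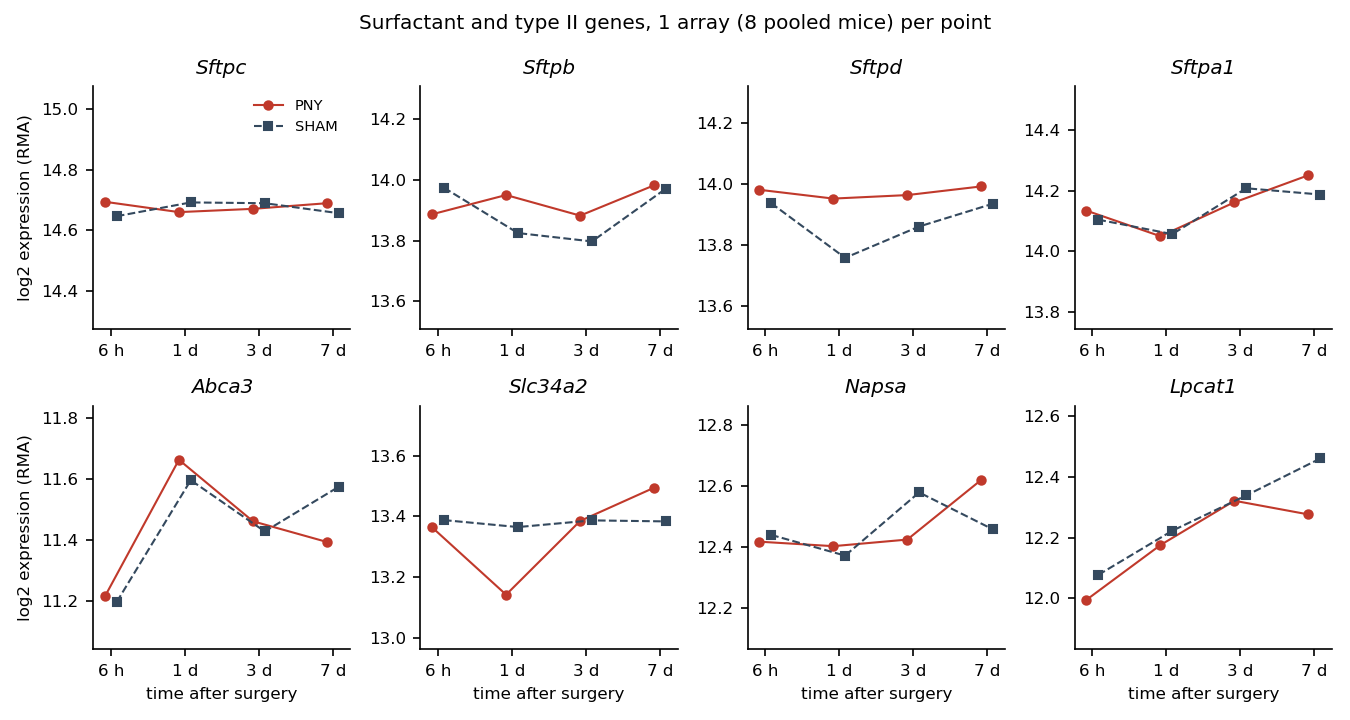
Log2 RMA expression (vertical axis) of the 8 measured surfactant and type II genes at 6 hours, 1, 3 and 7 days after surgery (horizontal axis), with 1 point per array of 8 pooled mice, PNY as red circles and SHAM as blue squares, and with an equal span of the vertical axis in every panel. *Sftpc* spans 0.05 over the 8 arrays, *Abca3* and *Lpcat1* lie lowest at 6 hours after both surgeries, and *Sftpd* is higher in PNY at each time point.

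Among the hydrophobic surfactant proteins, *Sftpc* (chr14:70520941-70524081), the precursor of surfactant protein C and a marker specific to type II cells, read 14.69, 14.66, 14.67 and 14.69 in PNY lungs in the order of the time points, against 14.65, 14.69, 14.69 and 14.66 in SHAM lungs. The groups overlap and the order of PNY and SHAM changes between time points. The mean difference was 0.007 ± 0.039 (SD of the 4 differences), with a 95% interval of -0.165 to 0.180 from limma. This probe set lies at the upper end of what the array reports: it was 0.024 to 0.161 below the highest value of each array, and 1 probe set was brighter on every array. A second *Sftpc* probe set with a mean level of 7.11 read 7.46, 8.47, 6.36 and 5.82 in PNY lungs, against 7.55, 9.30, 5.30 and 6.62 in SHAM lungs, in the order of the time points. It was highest at 1 day after both surgeries, changed over time by the F test of limma (adjusted p = 0.0229), and differed between the surgeries by -0.16 ± 0.89, more than the bright probe set in both spread and size. The suffix of its name marks probes that can also bind other transcripts, and whether it reports *Sftpc* was not tested.

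*Sftpb* (chr6:72304610-72314373), whose product is needed for lamellar bodies to form, read 13.89, 13.95, 13.88 and 13.98 in PNY lungs in the order of the time points, against 13.97, 13.82, 13.80 and 13.97 in SHAM lungs. PNY was higher at 3 of the 4 time points and lower at 6 hours, and the groups overlap. The mean difference was 0.03 ± 0.09, with an interval of -0.160 to 0.227.

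Of the collectins, *Sftpd* (chr14:41172212-41185198), surfactant protein D, was the gene of the set whose PNY arrays all lay above all SHAM arrays. It read 13.98, 13.95, 13.96 and 13.99 in PNY lungs in the order of the time points, against 13.94, 13.76, 13.86 and 13.94 in SHAM lungs. The PNY values are close together and the lowest SHAM value is that of 1 day. The mean difference was 0.10 ± 0.07, a fold change of 1.07, and it was higher in PNY at 4 of 4 time points. The exact permutation test gave p = 0.0286 (two-sided), the smallest that 70 splits of 8 arrays allow, whereas limma gave an unadjusted p of 0.260 and an adjusted p of 1.00. Over all probe sets 1.45% reached that exact p and 0.713% had all PNY arrays above all SHAM arrays (0.735% below), and 1 of 8 genes here did (0 below). Without the SHAM array of 1 day the difference was 0.06. *Sftpa1* (chr14:41131788-41136373), surfactant protein A, read 14.13, 14.05, 14.16 and 14.25 in PNY lungs, against 14.10, 14.06, 14.21 and 14.19 in SHAM lungs. Both groups were lowest at 1 day and overlap, with a mean difference of 0.01 ± 0.05.

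The genes that handle surfactant inside the cell did not separate the groups either. *Abca3* (chr17:24351921-24410204), the transporter that loads phospholipid into lamellar bodies, read 11.21, 11.66, 11.46 and 11.39 in PNY lungs, against 11.20, 11.60, 11.43 and 11.57 in SHAM lungs. Its groups follow the same course over the first 3 time points and part at 7 days, when the difference was -0.18. *Lpcat1* (chr13:73467231-73516420), the acyltransferase that remodels phosphatidylcholine to its saturated surfactant form, read 12.00, 12.18, 12.32 and 12.28 in PNY lungs, against 12.08, 12.22, 12.34 and 12.46 in SHAM lungs. It was lower in PNY at 4 of 4 time points, with a mean difference of -0.08 ± 0.07, an interval of -0.336 to 0.171 and an exact permutation p of 0.486 (two-sided). Over all probe sets 6.05% were lower at all 4 time points. *Napsa* (chr7:44572445-44586846), the aspartic protease that trims the precursor of surfactant protein B, read 12.42, 12.40, 12.42 and 12.62 in PNY lungs, against 12.44, 12.37, 12.58 and 12.46 in SHAM lungs. The PNY array of 7 days stands above the other 3 PNY arrays, and in SHAM the highest is that of 3 days. *Slc34a2* (chr5:53049353-53071664), the sodium phosphate cotransporter that recovers phosphate from surfactant lipid, read 13.36, 13.14, 13.38 and 13.49 in PNY lungs, against 13.39, 13.36, 13.39 and 13.38 in SHAM lungs. SHAM was nearly constant, and PNY lay lowest at 1 day and highest at 7 days. Without the PNY array of 1 day its mean difference of -0.03 ± 0.14 became 0.03.

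**Figure D2:**
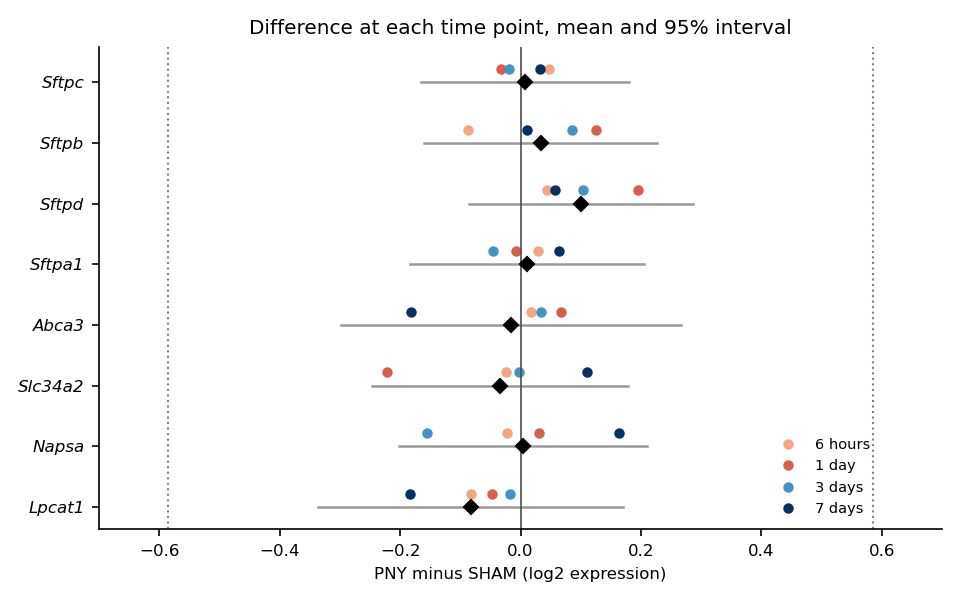
PNY minus SHAM in log2 expression (horizontal axis) for the 8 genes (rows), with coloured points for the 4 time points, a diamond for their mean and a bar for limma's 95% interval; dotted lines mark a fold change of 1.5 either way. All intervals cross 0 and stay between -0.336 and 0.286, and the 4 *Sftpd* points lie right of 0.

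The tests between PNY and SHAM took the 4 time points as replicates. Rank products, the study's own test (P under 0.001 and a change of 1.5-fold or more), called 0 of 8 genes, with 0.371% of all probe sets called, and the lowest P of a gene of the set was 0.309. The dim *Sftpc* probe set described above had rank product P-values of 6.91e-04 for lower and 0.00488 for higher in PNY, and a fold change of -1.12, so it was not called. limma called 0 of 8 at an adjusted p under 0.05, with 0.0% of all probe sets called, and 0 of 8 at an unadjusted p under 0.05, against 2.0% of all probe sets. Fitted with the time point as a block, the lowest adjusted p of the 8 genes was 0.943 and the intervals ran from -0.268 to 0.284. The widest bound of limma's intervals, -0.336 for *Lpcat1*, is a fold change of 1.26, so larger mean differences lay outside the intervals of the 8 probe sets used. For the bright *Sftpc* probe set, with 1 brighter on every array, quantile normalization holds the value nearly fixed. Its narrow interval could therefore hardly show a change. Near the top too were *Sftpa1*, *Sftpd* and *Sftpb*, with 8 to 14, 15 to 29 and 17 to 32 brighter probe sets per array. How far this limits their differences was not tested. Some other probe sets reached further: -0.486 to 0.630 for the second *Lpcat1* probe set by level and -1.94 to 1.61 for the dim one of *Sftpc*. Medians of the 8 genes were -0.002 at 6 hours and 0.012, -0.010 and 0.045 on days 1, 3 and 7, against medians between 0.00 and 0.01 over all probe sets. The difference between the surgeries late in the course (3 and 7 days) minus that early (6 hours and 1 day) ran from -0.12 to 0.18 over the 8 genes, with a lowest p of 0.367 in limma and bounds of -0.742 to 0.605. No gene of the set passed that test after adjustment, nor did any probe set (0.0%), and at an unadjusted p under 0.05 it was 0 of 8, against 2.77% of all probe sets.

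Over time, after either surgery, *Abca3* and *Lpcat1* were the genes of the set that lay apart at 6 hours. For both, on the probe sets used, the 6 later arrays were all above both arrays of 6 hours, as were 12.6% of all probe sets (11.6% had all 6 below). *Abca3* differed by 0.31 (1, 3 and 7 days minus 6 hours, 95% interval 0.089 to 0.540, adjusted p = 0.0917 in limma) and *Lpcat1* by 0.26 (0.049 to 0.477, adjusted p = 0.128). Neither passed the threshold, at which 5.15% of all probe sets were higher later and 3.37% lower. With only probe sets above the median level tested, both passed (limma, adjusted p = 0.0337 for *Abca3* and 0.0476 for *Lpcat1*). So did 5435 of the 22518 probe sets tested there, 3524 of them higher later. Over the alternatives run on these same probe sets (scaling, the level filter and leaving out each array) the adjusted p ran from 0.0337 to 0.385 for *Abca3* and from 0.0476 to 0.404 for *Lpcat1*. The other 6 genes differed by -0.049 to 0.047, and the F test over the time points called 0 of 8 (3.18% of all probe sets). At an unadjusted p under 0.05, 2 of 8 genes were higher later, against 13.1% of all probe sets.

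Other probe sets of these genes were read as a check. *Abca3* has another bright probe set (mean level 10.7), which read 10.57, 10.58, 10.79 and 10.87 in PNY lungs, against 10.53, 10.74, 10.83 and 10.88 in SHAM lungs, and differed by 0.23 between later and 6 hours (adjusted p = 0.179). Of the bright *Lpcat1* probe sets, the second by level (11.7) read 11.38, 11.39, 11.88 and 12.15 in PNY lungs, against 11.16, 11.29, 12.19 and 11.89 in SHAM lungs. It was higher at 3 and 7 days than before after both surgeries and passed the test (0.53, adjusted p = 0.0451), whereas the next (11.3) did not (0.34, adjusted p = 0.0947). In each of these *Lpcat1* probe sets an array of 1 day lay below the higher array of 6 hours (11.29 against 11.38, and 11.00 against 11.04). The brightest, used above, has a name that marks probes shared by several transcripts. Markers of some other cell types moved with time as well, by a test in which 5.15% of all probe sets were higher later and 3.37% lower. Of 10 type I markers 2 rose, and of 11 alveolar macrophage genes 2 rose and 1 fell. None passed among 8 club cell, 6 thymocyte, 8 muscle and 4 adipocyte markers. Of 8 endothelial markers 4 rose later (*Kdr*, *Tie1*, *Emcn* and *Tek*, by 0.69, 0.66, 0.50 and 0.45), with summed linear levels on single arrays of 15857 to 19768 in PNY and 14682 to 19465 in SHAM. Of 8 fibroblast markers 3 rose (*Col3a1*, *Tcf21* and *Col1a1*, by 0.85, 0.78 and 0.50), with sums of 25250 to 33138 in PNY and 23577 to 33052 in SHAM. Their part in the time course of *Abca3* and *Lpcat1* was not tested.

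**Figure D3:**
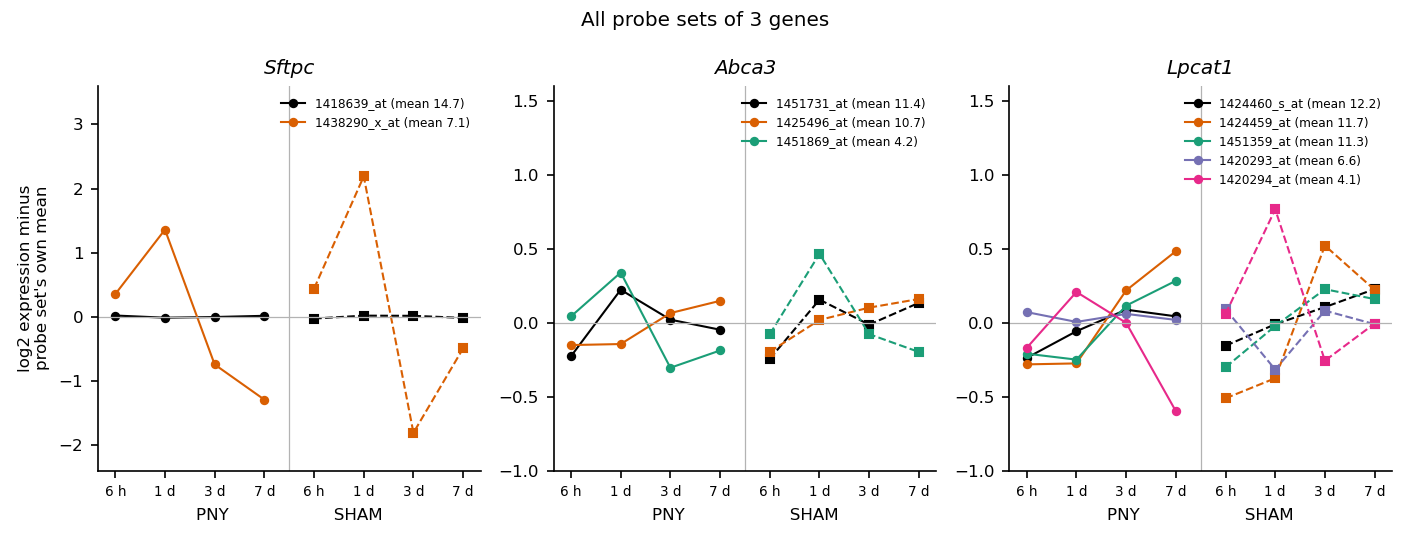
Log2 expression of every probe set of *Sftpc*, *Abca3* and *Lpcat1* minus that probe set's own mean over the 8 arrays (vertical axis, wider in the *Sftpc* panel), by time point, PNY left as circles and SHAM right as squares, with mean levels in the legends. The bright *Sftpc* probe set is flat near 0 while the dim one spans 4.00, and the 3 bright *Lpcat1* probe sets are lowest at 6 hours or 1 day.

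The genes that type II cells use around these 8 were read from 4 lists with 71 genes, of which 69 have a value. They were read in pooled lung tissue, so other cells may add to their values, and the cell source was not tested. None of the 69 was called between PNY and SHAM by rank products or limma. At an unadjusted limma p under 0.05 there were 0 of them (2.0% of all probe sets), and at a rank product P under 0.05 there were 5 (8.26%). With the time point as a block in limma, 0 were called (lowest adjusted p = 0.874), and 3 had an unadjusted p under 0.05, against 5.52% of all probe sets. The mean difference was above 0 for 31, as for 22562 of all 45037 probe sets, and no single value of 276 reached a fold change of 1.5. In surfactant lipid synthesis (21 measured, median mean difference 0.01), *Lpin1*, the phosphatase that makes diacylglycerol, read 9.68, 8.67, 8.30 and 8.40 in PNY lungs, against 9.94, 9.01, 8.62 and 8.68 in SHAM lungs. It was lower in PNY at 4 of 4 time points by a nearly constant amount (-0.30 ± 0.04), while its groups overlap across the time course. It was not called, and limma with the time point as a block gave an unadjusted p of 0.00498 and an adjusted p of 0.874. The elongase *Elovl6* had a mean difference of 0.24 ± 0.21, the elongase *Elovl1* one of 0.15 ± 0.14 and *Gpam*, an acyltransferase at the first step of glycerolipid synthesis, one of -0.09 ± 0.10.

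In the list of lamellar body, secretion and surfactant homeostasis genes (20 measured, median 0.02), the proteases *Pgc* and *Ctsh*, both known to process surfactant protein B, had mean differences of 0.23 ± 0.13 and 0.18 ± 0.18 and were higher in PNY at 4 of 4 time points. *P2ry2*, the purine receptor that triggers surfactant secretion, had 0.13 ± 0.24, and the vesicle SNARE *Vamp8* had -0.13 ± 0.08. Neither pair passed a test. Of 14 transcription regulators (median -0.03), 3 had a mean above 0, and the 4 with the largest means were *Cebpa* (-0.13 ± 0.10), *Stat3* (-0.11 ± 0.14), *Cebpd* (0.09 ± 0.12) and *Klf5* (-0.08 ± 0.18). *Nkx2-1*, chosen here for its role and after its values were seen, read 7.72, 7.09, 7.40 and 7.78 in PNY lungs, against 7.36, 7.42, 7.81 and 7.42 in SHAM lungs. PNY was the higher at 6 hours and 7 days and the lower in between, with a mean of -0.01 ± 0.42. Of the genes whose windows are printed above, *Sftpa1* had the same signs at the 4 time points, with differences of at most 0.06 in size, and *Sftpb* did not. *Sftpc*, which has no window here, had these signs too, with differences of at most 0.05 in size. The share of all probe sets with these signs was not counted. The *Sftpa1* difference at 1 day was -0.007, and quantile normalization holds the *Sftpc* value nearly fixed. No relation to *Nkx2-1* is read from these signs, and none was tested. Among 14 other type II markers (median -0.01), *Acoxl*, an acyl-CoA oxidase relative, had -0.23 ± 0.22, the alarmin *Il33* had 0.17 ± 0.20, the calcium-binding *S100g* had -0.17 ± 0.17 and complement *Hc* had -0.12 ± 0.24.

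Between the later time points and 6 hours, 12 of the 69 genes passed the limma test, 6 higher and 6 lower later, beside 8.52% of all probe sets called either way. *Lpin1* fell by 1.2 on the log2 scale (adjusted p = 9.04e-04), choline kinase *Chka* fell by 0.66 (adjusted p = 0.00703), and *Lpl*, lipoprotein lipase, and *Elovl6* fell by 0.58 and 0.56. *Elovl1* rose by 0.87 (adjusted p = 0.00357) and the fatty acid binding protein gene *Fabp5* rose by 0.41 (adjusted p = 0.0495). The *Elovl1* probe set, like the dim one of *Sftpc*, has a suffix that marks probes that can also bind other transcripts. Of the regulators, *Cebpd* fell by 1.00 and *Stat3* by 0.50, both known as acute phase factors, while *Nfib* rose by 0.48 and the glucocorticoid receptor gene *Nr3c1* by 0.37. *Acoxl* rose by 1.03 and *Il33* by 0.58. Of the 20 lamellar body and secretion genes 0 passed, with 5 at an unadjusted p under 0.05, beside 11053 of all 45037 probe sets. The other 57 genes did not pass.

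**Figure D4:**
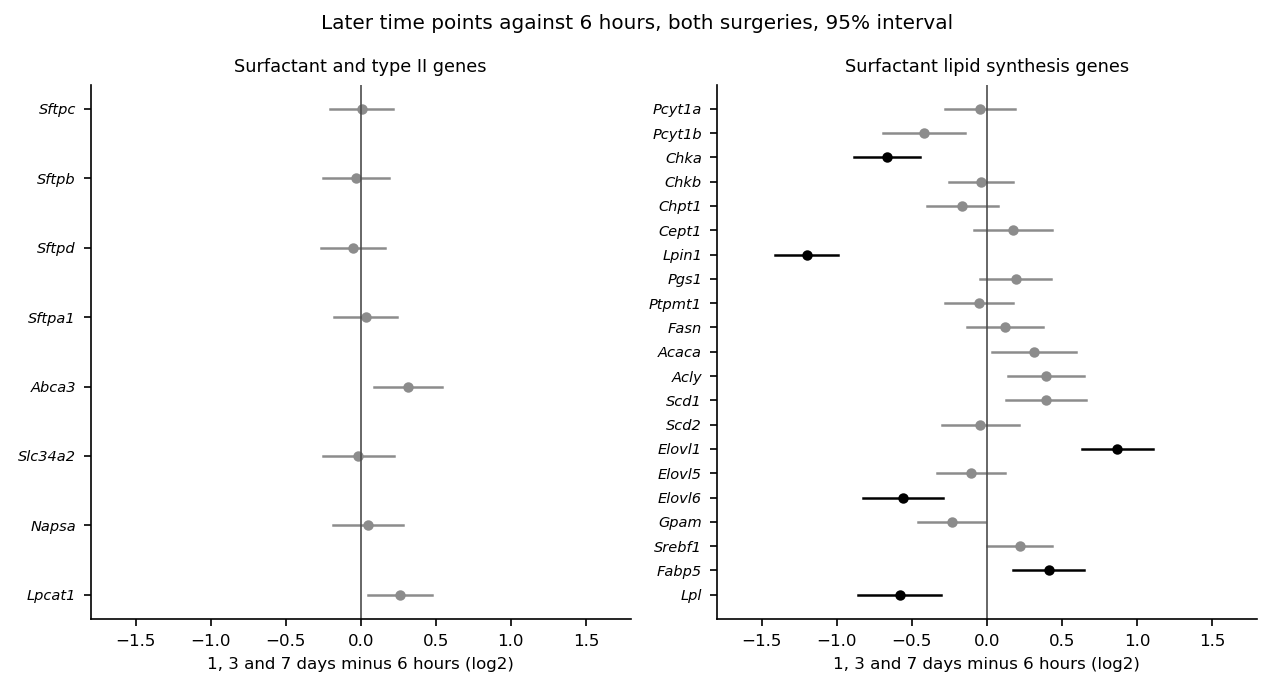
Mean of 1, 3 and 7 days minus 6 hours in log2 expression over both surgeries (horizontal axis), with limma's 95% interval, for the 8 surfactant and type II genes (left) and 21 surfactant lipid synthesis genes (right); black marks an adjusted p under 0.05. On the left *Abca3* and *Lpcat1* lie right of 0 in grey, and on the right 6 genes are black, *Lpin1* lowest at -1.2 and *Elovl1* highest at 0.87.

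Markers of the neighbouring epithelium were set beside the type II genes. Of 10 type I markers, 9 had a mean difference above 0 (median 0.11), against 22562 of all 45037 probe sets, and 0 were called between the surgeries by rank products or limma, with 1 at a rank product P under 0.05 and 0 at an unadjusted limma p under 0.05. *Cldn18*, an alveolar claudin of both cell types, read 12.16, 12.00, 12.29 and 12.47 in PNY lungs, against 11.93, 12.00, 12.12 and 11.90 in SHAM lungs, and *Pdpn*, podoplanin, had a mean difference of 0.25 ± 0.25. Of 9 genes of the transitional state between type II and type I cells, 4 were higher in PNY at 4 of 4 time points, beside 7.41% of all probe sets. *Krt8*, a keratin of that state, read 11.44, 11.35, 11.45 and 11.44 in PNY lungs, against 11.28, 11.27, 11.25 and 11.11 in SHAM lungs. The groups do not overlap for *Krt8* (0.19 ± 0.10) or for *Sfn* (0.24 ± 0.21, the stratifin gene), each with the smallest exact permutation p of 0.0286. Of all probe sets, 0.713% had all PNY arrays above all SHAM arrays and 1.45% reached that exact p. In limma 2 of the 9 had an unadjusted p under 0.05, against 2.0% of all probe sets. *Itgb6*, the integrin subunit that activates TGF-β, had 0.47 ± 0.24 and was higher at 4 of 4 time points, and none of the 9 was called by rank products or limma. Of 8 club cell markers (median -0.03) and 5 other collectins (median -0.03) none was called, and 7 housekeeping genes had a median of 0.05, 1 of them (*Pgk1*) with all PNY arrays above all SHAM arrays, beside the 0.713% of all probe sets. Of 11 genes of alveolar macrophages and surfactant clearance (median -0.04), the lipid carrier *Fabp4* had 0.36 ± 0.70 and *Csf2ra*, a receptor chain for the cytokine that drives clearance, had -0.31 ± 0.16, and neither was called.

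Markers of tissues that are not alveolar varied between arrays. At 1 day the 6 thymocyte markers had a median difference of 2.53 and a summed linear level of 1839 in PNY, against 247 in SHAM, where the other 6 arrays ranged from 180 to 294. At 7 days 8 muscle markers had a median difference of 0.96 (sums of 5333 in PNY and 3163 in SHAM). The other 6 arrays had muscle sums of 4950 to 6439, so it was the SHAM array of 7 days that stood apart. At 6 hours 4 adipocyte markers had a median difference of 0.99 (2868 in PNY and 1209 in SHAM), with a sum of 2369 on the PNY array of 1 day and sums of 911 to 1704 on the others. Rank products called *Rag1*, *Nppa* and *Car3* of these lists higher in PNY and *Alas2*, of 2 red cell markers, lower. Their part in the values of the type II genes was not tested.

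The mean profile of the 8 genes, each centred on its own mean, ran from -0.06 on the PNY array of 6 hours to 0.07 on that of 7 days, and in SHAM from -0.05 at 6 hours to 0.06 at 7 days. Of 12143 genes above the median level, *Nif3l1* (r = 0.986 over 8 arrays), *Tbc1d13* (0.983), *9130023H24Rik* (0.979), *Elmo2* (0.977), *Dzip3* (0.974), *Gna14* (0.974), *P2rx7* (0.971), *Rnf170* (0.967), *Rab24* (0.967) and *Coil* (0.964) had the profiles most like it. *P2rx7* encodes an ATP-gated channel that is expressed in type I cells. These correlations are descriptions over arrays that share time points and normalization, picked as the highest of all. The 8 genes spanned 0.05 to 0.47 over the arrays, against a median span of 0.35 for probe sets at or above their lowest level and 0.52 for all probe sets.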

How the data were processed

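Lung RNA of 8 pools, 4 PNY and 4 SHAM, was hybridised to 1 Affymetrix mouse array each. The authors made the deposited log2 values with the RMA library of BioConductor (version not given in the sources used here): background correction, summarization and quantile normalization over the arrays, which fixes each array's distribution and compresses the brightest and dimmest probe sets. Arrays give no count or depth, so precision is set by how many there are. Of 45101 probe sets, 64 controls were left out and 45037 tested. By the array annotation 34945 carry 1 gene symbol, 932 several and 9160 none, and genes are named from the first kind only (34741 matched RefSeq, which changed 0 symbols). Rank products over 16 array pairs with 1000 permutations (100 for alternatives) were written in Python 3.11.15 (numpy 2.4.6, pandas 2.3.3), and limma 3.58.1 in R 4.3.3 gave intervals and Benjamini-Hochberg adjusted p-values over all probe sets; both were tested on simulated data. Time models held surgery as a term. Figures were drawn with matplotlib 3.10.9.

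The genes, the 16 lists around them (167 entries, 12 without a probe set of 1 symbol), the tests and the alternatives were chosen with earlier results of these data known. Genes of a list are named by the 4 largest mean differences or by passing a test. Since GEO's labels give 1 pool per surgery and time point, no p-value measures the spread over mice. The main tests between the surgeries by limma and exact permutation set a difference against the spread over time points. With the time point in the limma model, it is the spread left after surgery and time point. Rank product P-values measure how extreme a probe set's ranks are among all probe sets. The time point was taken to pair the arrays, and deviations from the group means were correlated over probe sets. Within a time point r was 0.605 at 6 hours and 0.357, 0.302 and 0.295 on days 1, 3 and 7. Across time points it ran from -0.508 to 0.340. The highest of these, PNY of 7 days with SHAM of 3 days, exceeded the pairs of 3 and 7 days. The time point was used as a block in alternatives. The others were centring or renormalizing arrays, a filter at the median level, other thresholds, fold changes of 1.2 and 2, a trended robust prior, other probe sets and leaving out arrays or time points.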

Additional observations from a re-analysis of the deposited data

Results flagged for a closer look

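*Napsa* on the PNY array of 7 days (12.62) stands apart from the other 3 PNY arrays: its gap to the next of them is 0.901 of the range of the 4 arrays, above the limit for a group of 4. Among the groups of 4 arrays checked, chance flags about 1 in 20, and 1 of 16 was flagged. A dimmer *Napsa* probe set (mean level 5.78) was lowest on that array at 5.44.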

How the results depend on the processing

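Under rank products and limma the count of 0 of 8 genes called between PNY and SHAM held in every alternative run. The fit with the time point as a block was among them. Most of these alternatives could hardly have called a gene. With or without arrays left out, limma's adjusted p called no probe set at all, apart from 1 without the PNY array of 1 day. Most rank product settings kept the minimum fold change, while the largest mean difference here was a fold change of 1.07 (*Sftpd*). Looser settings could have called a gene. Rank products at P under 0.05 with no minimum called 1847 probe sets higher and 1875 lower. At an unadjusted p under 0.05 limma called 902. In the exact permutation test the 1 gene at an unadjusted p under 0.05, *Sftpd*, became 0 with sign flips within time points (a paired form of the test, with the time point as replicate block), whose smallest p is 0.125. In the contrast of later time points with 6 hours the count of 0 genes became 2 with only probe sets above the median level. It also became 2 at an unadjusted p under 0.05. In the first, fewer probe sets were tested and 5435 of 22518 passed, and in the second 11053 of 45037 did. Leaving out 1 array at a time left the counts called at 0 to 0 in rank products, limma, the time contrast and the late minus early contrast. When 1 array or 1 time point was left out, the mean differences between the surgeries stayed between -0.15 and 0.12, and the sign turned at least once for 5 of the 8 genes (*Sftpc*, *Sftpa1*, *Abca3*, *Slc34a2* and *Napsa*) and held for *Sftpb*, *Sftpd* and *Lpcat1*. Another probe set or the mean of probe sets moved the difference of *Sftpc* or *Lpcat1* by more than its SD in 5 cases. The array top limits what the bright *Sftpc* probe set can show. It may also limit *Sftpa1*, *Sftpd* and *Sftpb*, which was not tested. Having 1 array per surgery and time point leaves single time points without a test.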
